A study of Mus musculus with 84 samples.

Results

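The cytosolic ribosomal protein genes of mouse liver were followed across 14 strains given TCDD or its vehicle. The members were chosen by name from the gene symbols of the authors' table. Symbols that start with Rpl or Rps followed by a number were kept, together with Rplp0, Rplp1, Rplp2 and Rpsa. Pseudogene names with -ps and the S6 kinases were not kept. This gave 89 genes of the 37310 rows of the count files. They comprise 41 proteins of the large subunit, 30 of the small subunit, the 3 proteins of the acidic stalk and Rps27a, a ubiquitin fusion. These 75 are called canonical here. A further 7 are paralogs (Rpl3l, Rpl7l1, Rpl22l1, Rpl36al, Rpl39l, Rps4l and Rps27l) and 6 are retrocopies or like genes (Rpl6l, Rpl37rt, Rps3a2, Rps3a3, Rps12l1 and Rps27rt). The last, Rps19bp1, fits the name rule but encodes a binding partner of Rps19 and no ribosomal protein.

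RNA of the liver was sequenced in 84 libraries, 3 per group, and each of the 14 strains has a TCDD group and a vehicle group. All mice were pregnant females that were 6 to 8 weeks old at the start. Treated mice took 0.1 µg/kg/day TCDD (2,3,7,8-tetrachlorodibenzo-p-dioxin) by mouth in peanut butter on 10 consecutive days, and controls took the peanut butter alone. Of the strains, 10 are inbred: 129S1/SVIMJ, A/J, BALB/CJ, C3HeB/FeJ, C57BL6/J, DBA1/J, CBA/J, FVB/NJ, NOD/SHILTJ and NZO/HILTJ. BXD-40/TyJ, BXD91/2RwwJ and BXD100/RwwJ are recombinant inbred lines, and CC019/TauUnc comes from the Collaborative Cross. No mouse carried a labelled mutation or transgene. The labels do not say whether the 3 libraries of a group came from separate animals, so the p-values measure the spread between libraries. In bulk liver, fewer cells of a type and less RNA per cell cannot be told apart.

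Each cytosolic ribosome holds 1 copy of nearly every ribosomal protein around the ribosomal RNAs, and the stalk proteins recruit the elongation factors. In mammals the genes are active in almost all cells, and their mRNAs start with a run of pyrimidines, the 5′ terminal oligopyrimidine motif, through which nutrient signalling by mTOR sets their translation. Few gene families have left as many retrocopies in the genome, that is, intronless copies made from the mRNA, most of which are pseudogenes. TCDD activates the aryl hydrocarbon receptor, whose best known liver target is Cyp1a1.

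Libraries held 9122410 to 19689600 gene counts, with a median of 16202900. Reads that lay in no gene made up 46.7% to 52.6%. Reads with more than 1 alignment, which the count files list apart, made up 7.80% to 9.94% in the inbred strains, 8.53% to 10.2% in CC019/TauUnc and 3.74% to 4.35% in the BXD lines. File names show a reference tag for each inbred strain, a common one for the BXD lines and another for CC019/TauUnc, so strain and reference cannot be told apart. The tags of DBA1/J and C3HeB/FeJ name other strains, DBA2J and C3HHeJ. Libraries with values apart from the rest bear on some results. The library labelled C57BL6/J TCDD replicate 3 had the fewest counts and the highest share of member counts, 7017 CPM, that is, counts scaled to the library's total of gene counts. Markers of skeletal muscle summed to 2291 CPM and those of adrenal cortex to 456 CPM in A/J vehicle replicate 2, and adrenal cortex markers reached 611 CPM in BXD-40/TyJ vehicle replicate 1. These 3 libraries were left out together in an alternative fit. Muscle markers also summed to 435 CPM in BXD91/2RwwJ TCDD replicate 2, 167.4 CPM in CBA/J TCDD replicate 2 and 126 CPM in CBA/J vehicle replicate 3, and to 22.7 CPM or less elsewhere. Hepatocyte markers were high in all groups. In the authors' deposited table the log2 fold change of Cyp1a1 ran from -0.30 in NZO/HILTJ to 11.7 in C57BL6/J.

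Much of the members' mRNA sequence is also found elsewhere in the mouse transcriptome. Transcripts of GENCODE M21 were cut into all stretches of 50 bases. The median member shared 56.8% of its stretches with other annotated genes, 54 of 89 shared over 50% and only 4 shared none. The 77 mitochondrial ribosomal proteins, which form the separate ribosome of the organelle, shared a median of 2.67%. Stretches that lie within 1 exon and are not shared made up a median of 31.8% of a member and 79.1% of a mitochondrial ribosomal protein. For 75 members at least 1 other row of the count files shared 50 or more stretches, giving 373 pairs of a member and such a row. These rows are called copies below.

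The stretches below are shown because these members and their copies differ in so few bases. Each is a run of 60 bases of the coding sequence, 5′ to 3′ on the coding strand, of a member and then of its copy, from GENCODE M21 (GRCm38). Capitals mark the base at which the pair differs, and a pair without capitals is identical over the whole coding sequence.
Rpl36al: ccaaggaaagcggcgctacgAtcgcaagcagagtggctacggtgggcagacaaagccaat
Rpl36a-ps3: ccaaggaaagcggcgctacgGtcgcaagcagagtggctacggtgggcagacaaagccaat
Rps3a1: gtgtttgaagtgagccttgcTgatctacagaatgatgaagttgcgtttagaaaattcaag
Rps3a3: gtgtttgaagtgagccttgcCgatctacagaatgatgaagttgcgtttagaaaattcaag
Rpl37: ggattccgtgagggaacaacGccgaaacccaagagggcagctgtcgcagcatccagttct
Rpl37rt: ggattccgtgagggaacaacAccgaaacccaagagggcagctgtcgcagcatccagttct
Rpsa: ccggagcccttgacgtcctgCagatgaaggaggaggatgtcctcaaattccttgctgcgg
Rpsa-ps10: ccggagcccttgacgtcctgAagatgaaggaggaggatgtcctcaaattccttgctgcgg
Rps25: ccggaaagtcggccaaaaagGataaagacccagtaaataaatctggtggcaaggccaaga
Rps25-ps1: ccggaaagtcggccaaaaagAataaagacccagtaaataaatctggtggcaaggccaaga
Rpl3: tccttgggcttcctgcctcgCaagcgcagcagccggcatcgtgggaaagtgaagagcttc
Rpl3-ps1: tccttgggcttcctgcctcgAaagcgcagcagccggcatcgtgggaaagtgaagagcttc
Rps16: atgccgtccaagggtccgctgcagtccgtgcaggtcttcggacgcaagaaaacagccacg
Rps16-ps2: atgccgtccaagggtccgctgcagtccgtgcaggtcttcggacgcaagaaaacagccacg
Rps27: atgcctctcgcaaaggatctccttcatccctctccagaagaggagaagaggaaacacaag
Rps27rt: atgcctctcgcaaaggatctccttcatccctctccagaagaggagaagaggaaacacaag

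Rps27 on chromosome 3 and the single-exon Rps27rt on chromosome 9 were identical over 255 coding bases. Rps16 on chromosome 7 and Rps16-ps2 on chromosome 5 were identical over 441. Rpl36al on chromosome 12 and Rpl36a-ps3 on chromosome 6 differed at 1 of 321 bases, as did Rpl37 on chromosome 15 and Rpl37rt on chromosome 5 at 1 of 294. Rpl3 on chromosome 15 and Rpl3-ps1 on the X chromosome differed at 2 of 1209 aligned bases, and Rps25 on chromosome 9 and Rps25-ps1 on chromosome 6 at 4 of 378. Rpsa on chromosome 9 and Rpsa-ps10 on chromosome 3 differed at 6 of 885, and Rps3a1 on chromosome 3 and Rps3a3 on chromosome 13 at 9 of 795.

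The members' count rows spanned a wide range of levels per length. The canonical members had a median of 9.27 CPM per kb of transcript over the 84 libraries, against 0.942 for the 20175 protein-coding genes with a length. They ran from 0.764 CPM per kb for Rps15a to 414 for Rpl8, a 542-fold range. The transcript taken for Rps15a had 5130 bases, against a median of 780 for the members, so that low end depends on the transcript chosen. Not scaled to length, Rps15a had a median of 3.92 CPM, against 0.896 for Rps23. Of the 75, 43 had a median under 10 CPM and 12 one of 100 CPM or more. The highest 5 members per length were Rpl8 (a large subunit protein beside the peptidyl transferase centre) at 414, Rps9 (a small subunit protein that affects decoding accuracy) at 374, Rps27rt and Rpl32 at 325 each, and Rpl13a, also known as part of a complex that silences inflammatory mRNAs, at 313 CPM per kb. The lowest 5 were Rps12l1 and Rpl39l at 0, the muscle paralog Rpl3l at 0.156, Rps15a at 0.764 and Rps23 at 0.957 CPM per kb. Rpl39l is known from testis.

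The median level was lower where more of the sequence was held elsewhere, but the ranges overlapped almost fully. The 15 members that shared under 25% of their stretches had a median of 26.2 CPM per kb (0 to 414). The 48 that shared 25% to 75% had 10.4 (0.957 to 374) and the 26 that shared more had 6.32 (0 to 325). The first of these medians is the value of Rps19bp1, which encodes no ribosomal protein. Members with a copy had a median of 5.72 CPM, and those with no copy 121 CPM. Rps27, with 98.6% of its stretches shared, stood at 4.49 CPM per kb while its identical single-exon copy Rps27rt stood at 325. In 51 of the 75 members with copies the leading copy, the one with the highest median, had more CPM than the member. Over these 75, the member held a median of 13.8% of the sum of itself and its copies. The levels given for single members are thus levels of their count rows. Stretches within 1 exon made up a median of 71.6% of a member, and the part of exon junctions in its level was not tested.

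**Figure D1:**
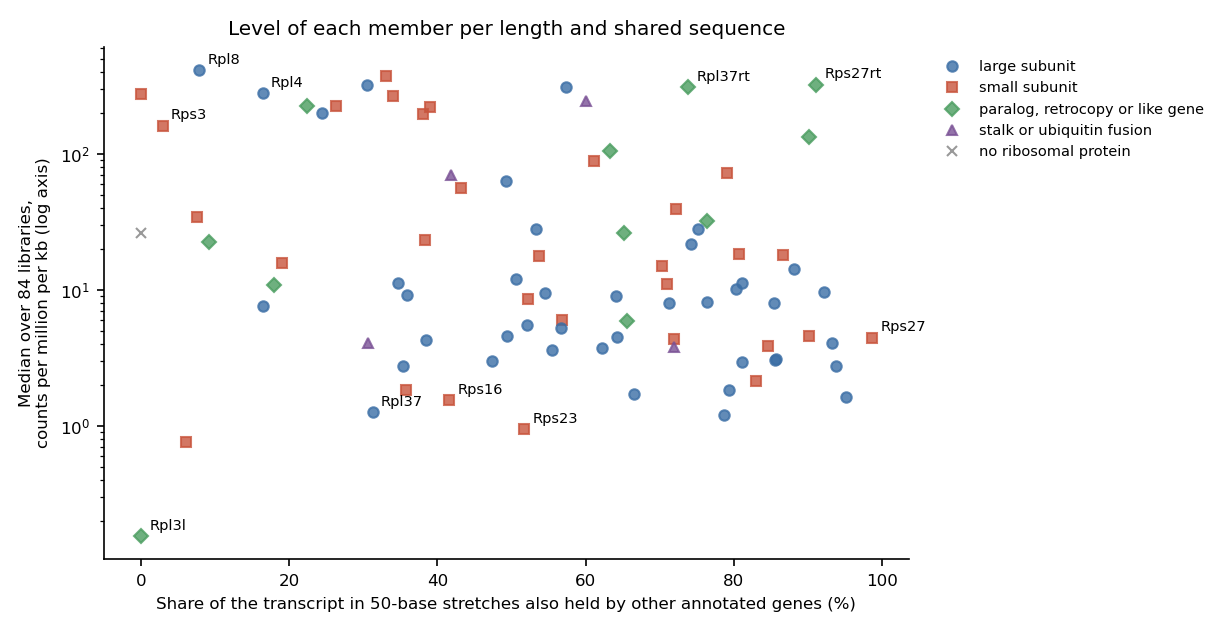
Median level over 84 libraries of each member (CPM per kb, log axis) against the share of its transcript in 50-base stretches that other annotated genes also hold (%). Rps27 and Rps27rt, identical in coding sequence, stand at 4.49 and 325, and Rpl8, with little shared sequence, at 414. Rpl39l and Rps12l1, at 0, are not drawn.

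The members' transcripts were also short, with a median of 780 bases, against 2531 for protein-coding genes. Their GC content was close to that of other genes. Its median was 51.6%, against 49.8% for protein-coding genes and 50.7% for mitochondrial ribosomal proteins. The start of the transcript was looked at in the promoter table of RefSeq (GRCm38.p6), which held 64 of the 89 members and 55 of the 75 canonical ones. A C followed by at least 5 further C or T, on the coding strand, in the 30 bases from 10 before to 20 after the annotated start, was present in 30 of the 55 (54.55%), in 17 of 68 mitochondrial ribosomal proteins (25%) and in 5958 of all 27025 promoters (22.05%). The windows of 5 abundant members follow. Capitals mark the run, and Rpl4, Rps3 and Rplp0 have none in this window.
Rps9, chr7:3704031-3704060, plus strand: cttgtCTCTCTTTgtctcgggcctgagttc
Rpl13a, chr7:45128726-45128755, minus strand: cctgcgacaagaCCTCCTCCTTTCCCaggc
Rpl4, chr9:64173377-64173406, plus strand: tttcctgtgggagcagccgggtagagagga
Rps3, chr7:99483690-99483719, minus strand: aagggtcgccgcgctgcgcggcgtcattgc
Rplp0, chr5:115559457-115559486, plus strand: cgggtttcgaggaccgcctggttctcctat

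No member was called changed by TCDD over the strains. In the test of the mean of the 14 within-strain effects, 0 of the 87 members that passed the low-count filter were called at an adjusted p under 0.05 (edgeR), against 0.179% of the 16195 genes tested. DESeq2 also called 0. In edgeR 3 members had an unadjusted p under 0.05, as did 962 of all genes tested. The median log2 change was 0.04, with 73 members above 0 and 14 below, and the median over all genes tested was -0.00. The 3 with unadjusted p under 0.05 were the small subunit proteins Rps26, at 0.22 ± 0.08 (log2, SE), Rps18, at 0.16 ± 0.07, and Rpsa, which doubles as a laminin receptor, at 0.14 ± 0.06. Their adjusted p were 0.472, 0.803 and 0.813. Among the next by p were Rplp1 at 0.11 ± 0.05, Rps27l at 0.09 ± 0.05, Rpl36a at 0.12 ± 0.07 and Rpl22 at 0.06 ± 0.04. The stalk proteins Rplp0 and Rplp2 stood at 0.01 ± 0.05 and 0.11 ± 0.08. Rpl5 and Rpl11, which carry the 5S RNA and bind Mdm2 when free, stood at -0.02 ± 0.10 and 0.05 ± 0.09. Rps6, the target of the S6 kinases, stood at 0.05 ± 0.08 and Rps27a at -0.09 ± 0.10. The mitochondrial ribosomal proteins had a median of 0.06 with 0 of 77 called. Of the other genes of translation, 0 of 41 ribosome biogenesis factors, 0 of 29 initiation factors, 0 of 7 elongation factors, 0 of 22 controllers of ribosomal protein mRNA and 0 of 3 components outside the name rule were called.

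The effect of TCDD was not shown to differ between strains for any member. The strain by treatment test called 0 of 87 (0.0309% of all genes) in edgeR and 0 in DESeq2, with 6 members at an unadjusted p under 0.05: Rps3a2, Rpl36, Rps25, Rpl27, Rps26 and Rpl26. Of all 16195 genes tested, 1381 had an unadjusted p under 0.05 in edgeR. Among the members the smallest p was 0.00353 for Rps3a2, with an adjusted p of 0.332. The next, by p, were the paralogs Rpl3l and Rps4l.

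Within strains, 1 call was made among the members. In NOD/SHILTJ Rps3a2, a single-exon gene close to identical with Rps3a1, had 96.2, 91.5 and 91.7 CPM in the vehicle libraries and 145.3, 143.02 and 119.7 CPM in the TCDD libraries. The groups did not overlap. The difference was 0.66 ± 0.14 (log2, SE) with an adjusted p of 0.0113, among 1.91% of all genes called in that strain. It was lost without vehicle replicate 2, vehicle replicate 3 or TCDD replicate 2, in the strain fitted alone, and with trends on GC and length taken out. The median of the 87 members there was 0.27. An unadjusted p under 0.05 (edgeR) was seen in 18 of the 87. That share was close to the share over all genes, 3094 of 16195. All 11 Kupffer cell markers were lower with TCDD (median -0.53, 0 called). The length slope of the libraries went from 0.097 to -0.039 log2 per doubling of length. The part of these values in the result was not tested. With trends on GC and length taken out the median of the members was 0.16. Next by p were Rps24 at 0.46 ± 0.16 and Rps20 at 0.48 ± 0.17, with adjusted p of 0.0956 and 0.100.

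In the other strains edgeR called 0 members. The share of all genes called was 0.494% in A/J, 0.401% in C57BL6/J, 0.0247% in CBA/J, 0% in DBA1/J, 0.0309% in BXD100/RwwJ, 0.00617% in FVB/NJ, 0.0309% in C3HeB/FeJ, 0.00617% in BALB/CJ, 0% in NZO/HILTJ, 0.0556% in BXD91/2RwwJ, 0% in 129S1/SVIMJ, 0.235% in BXD-40/TyJ and 0% in CC019/TauUnc. Members with an unadjusted p under 0.05 (edgeR) numbered 11 in BXD-40/TyJ, 10 in 129S1/SVIMJ, 9 each in C57BL6/J and C3HeB/FeJ, and 0 to 5 in the rest. Of all 16195 genes, 1986 had such a p in BXD-40/TyJ, 669 in 129S1/SVIMJ, 1578 in C57BL6/J and 875 in C3HeB/FeJ. The members' share was thus close to that of all genes in BXD-40/TyJ and C57BL6/J, and above it in 129S1/SVIMJ and C3HeB/FeJ. DESeq2 called 1 member in C57BL6/J and 0 in the other strains but NOD/SHILTJ, where it called 2. In C57BL6/J 7 members were called without TCDD replicate 2 and 1 without vehicle replicate 2, and in C3HeB/FeJ 2 without TCDD replicate 2. The calls among all genes in these refits and in DESeq2 are not reported here. These counts are therefore not shown to be particular to the members. The median of the members ran from -0.26 in 129S1/SVIMJ to 0.27 in NOD/SHILTJ. In 129S1/SVIMJ all 11 Kupffer cell markers (median 0.33, 0 called) and 16 of 17 proliferation genes (median 0.51, 0 called) were above 0 with TCDD. Their part in the result was not tested. In 129S1/SVIMJ the smallest p included those of Rpl23a at -0.98 ± 0.33 and Rpl26 at -0.82 ± 0.32. In C57BL6/J they were those of Rpl36 at 1.08 ± 0.31, Rps14 at 0.55 ± 0.18 and Rps15 at 0.63 ± 0.22. Each had its highest CPM of all libraries in TCDD replicate 3, which had the fewest counts (12.7, 368 and 259 CPM). The part of that library in these values was not tested. Leaving out 1 library, the members' median in C57BL6/J ran from -0.02 to 0.31. In BXD-40/TyJ the smallest p were those of Rpl27 at 0.89 ± 0.26, Rps19bp1 at 0.61 ± 0.19 and Rpsa at 0.88 ± 0.27. The mean GC slope of the libraries there went from -0.173 with vehicle to 0.169 with TCDD (log2 per 10 points of GC). Its part in the result was not tested. In FVB/NJ Rpl36 led at 1.04 ± 0.33 and in C3HeB/FeJ Rps16 at 1.13 ± 0.40, with adjusted p of 0.977 and 0.797. In A/J the paralog Rpl3l had 0.367, 14.6 and 0.0611 CPM with vehicle and 0.845, 0.578 and 0.194 CPM with TCDD. The high value is in the library with skeletal muscle markers, and without it the log2 change of -3.02 became 1.33.

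The authors' deposited table gives 1 member in C57Bl/6J (Rpl36) and 2 in NOD/ShiLtJ (Rpl4 and Rps3a2), all higher with TCDD, at an adjusted p under 0.05, and 0 in the other 12 strains. In each of these 2 strains 87 members had an adjusted p. Of all genes with an adjusted p there, 168 of 14848 were under 0.05 in C57Bl/6J and 716 of 14848 in NOD/ShiLtJ.

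**Figure D2:**
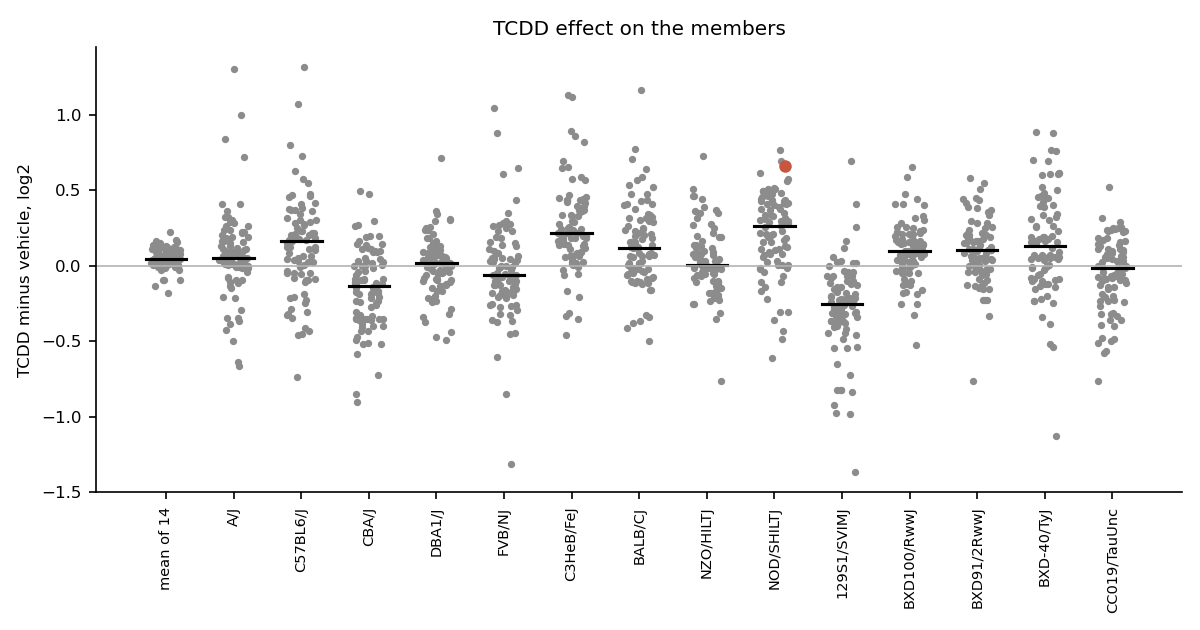
Log2 difference between TCDD and vehicle for each member but Rpl3l, for the mean of 14 strains and in each strain. Points are members, black bars are medians, and the red point is the only call, Rps3a2 in NOD/SHILTJ at 0.66. Medians run from about -0.26 in 129S1/SVIMJ to 0.27 in NOD/SHILTJ.

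Most of the members' count rows differed between strains. Among the vehicle groups of the 10 inbred strains 56 of 87 members differed (64.4%), against 42.4% of all genes, and DESeq2 called 62. Among the TCDD groups 50 differed, against 42% of all genes. By p the leading members were Rpl29, a large subunit protein also known as a heparin-binding surface protein (adjusted p 1.40e-38), Rpl15 (2.20e-29), Rps3a3 (8.47e-25), Rps2 (2.70e-24), Rpl36al (4.03e-23), Rps3a1 (1.91e-21), Rps25 (3.41e-19) and Rpl26 (9.52e-18). Of the related lists, 42 of 77 mitochondrial ribosomal proteins, 14 of 41 biogenesis factors, 8 of 29 initiation factors, 4 of 7 elongation factors, 5 of 22 controllers and 2 of 3 components outside the rule differed. The copies of a member differed between strains in either direction. Of 172 calls of a member in 1 strain against the other 9 whose leading copy was tested, the copy had the opposite sign in 92. In 41 of them both were called with opposite signs, and in 38 both with the same sign. A read can be counted under the member or under the copy but not both, so their signs are not independent. Copies were defined after the data had been seen, and of the members described next, those not named above (Rpl37, Rps16, Rpl3, Rpsa, Rps19, Rpl27, Rpl17, Rps7 and Rpl35) and all copies were picked with their values known.

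Rpl36al, the autosomal paralog of the X-linked Rpl36a, and its copy went opposite ways. In C57BL6/J vehicle it had 104, 89.6 and 89.2 CPM, while in A/J it had 16.5, 17.1 and 17.1 CPM. C57BL6/J was above the other 9 strains by 1.68 ± 0.13 (log2, SE; adjusted p 1.93e-17). The strains fell into a low set (A/J, CBA/J, DBA1/J, C3HeB/FeJ and NZO/HILTJ, means of 16.2 to 18.3 CPM) and a high set, with no overlap. Its copy Rpl36a-ps3, which differs at 1 coding base, went the other way: 89.2 ± 3.8 CPM in A/J (SD, n = 3) and 98.6 ± 2.5 in CBA/J, against 40.7 ± 9.7 in C57BL6/J and 24.3 ± 4.1 in NOD/SHILTJ. Member and copy together gave 106 ± 3.8 CPM in A/J, 116 ± 2.5 in CBA/J, 135.2 ± 6.7 in C57BL6/J and 78.1 ± 8.6 in NOD/SHILTJ. The ratio of the highest to the lowest of the 10 strain means, with 0.5 CPM added to each mean as in all such ranges, fell from 5.68-fold for the member to 1.73-fold for the sum.

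Rps3a1, the spliced gene of a small subunit protein that contacts initiation factors, and the single-exon Rps3a3 also went opposite ways. In CBA/J vehicle Rps3a1 had 1.12, 2.42 and 1.28 CPM and Rps3a3 had 94.6, 93.0 and 75.9 CPM. In C57BL6/J vehicle Rps3a1 had 9.74, 13.8 and 15.3 CPM and Rps3a3 had 20.8, 18.8 and 14.5 CPM. A/J, CBA/J, C3HeB/FeJ and 129S1/SVIMJ formed one set, with Rps3a1 at 1.61 to 2.40 CPM, and the other 6 strains were all at or above 10.6. CC019/TauUnc stood with the low set at 1.69 ± 0.52 CPM (SD, n = 3). Rps3a2, the most abundant of the 3, had 89.4 to 152 CPM.

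Other members also differed between strains, with copies that were called in some of these strains and not in others. Rpl37, a zinc finger protein of the large subunit, had 6.08 ± 0.72 CPM in BALB/CJ, 6.21 ± 1.68 in NZO/HILTJ and 3.09 ± 0.73 in 129S1/SVIMJ (SD, n = 3), against 0.756 to 1.11 in the other inbred strains. Its copy Rpl37rt was lowest in the first 2 of these, at 83.2 ± 19.8 and 91.6 ± 16 CPM, and ran up to 174 in CBA/J. Rpl37rt was called lower in BALB/CJ (adjusted p 0.00214, edgeR) and NZO/HILTJ (0.0465) but not in 129S1/SVIMJ (0.396). Rps16 had 5.66 CPM in A/J, 6.13 in BALB/CJ, 4.28 in NZO/HILTJ and 6.80 in 129S1/SVIMJ, against 0.770 to 1.83 in the rest, beside 177.1 to 337 CPM for the identical Rps16-ps2. Rps16-ps2 was called lower in A/J (adjusted p 0.0124, edgeR) and not called in BALB/CJ (0.473), NZO/HILTJ (0.666) or 129S1/SVIMJ (0.254). Rps25, known for its part in internal initiation, had 13.1 ± 2.2 CPM in 129S1/SVIMJ, 26.9 ± 1.2 in C57BL6/J and 27.2 ± 0.9 in FVB/NJ, against 49.5 to 63.8 in the other 7 strains. Rps25-ps1 was highest in C57BL6/J, at 74.3 ± 7.1, and in 129S1/SVIMJ, at 61.9 ± 7.0 CPM. Its range went from 4.73-fold to 1.47-fold. Rpl3, which lies at the peptidyl transferase centre, had 14.2 ± 2.6 CPM in NZO/HILTJ and 8.85 ± 2.18 in C57BL6/J, against 2.5 to 5.12 elsewhere, while Rpl3-ps1 held 221 to 298 CPM in all 10 strains and was not called in NZO/HILTJ (adjusted p 0.559, edgeR) or C57BL6/J (0.403). In CC019/TauUnc, outside that set, Rpl3 had 40.7 ± 1.3 CPM and Rpl3-ps1 102 ± 7.6 CPM.

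Rpsa had 4.85 ± 1.79 CPM in DBA1/J and 9.85 ± 2.74 in CBA/J (SD, n = 3), against 27.4 to 38.01 in the other 8 inbred strains. Rpsa-ps10 was highest in CBA/J, at 427 ± 115 CPM, and in DBA1/J, at 211 ± 39.4, against 100 to 162 elsewhere. Adding all copies took the range from 7.19-fold to 2.98-fold, and it left CBA/J highest, at 458 ± 116 CPM. Rpl26, known to bind the mRNA of p53, had 12.7 ± 2.2 CPM in FVB/NJ and 10.7 ± 1.8 in DBA1/J, against 1.21 to 6.10 elsewhere. Its copy Gm15772 was lowest in FVB/NJ, at 57.4 ± 9.7 CPM, and highest in CBA/J, at 191 ± 31.7. The test of FVB/NJ against the other 9 gave 2.15 ± 0.19 (log2, SE) for Rpl26 alone and -0.78 with its copies added.

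**Figure D3:**
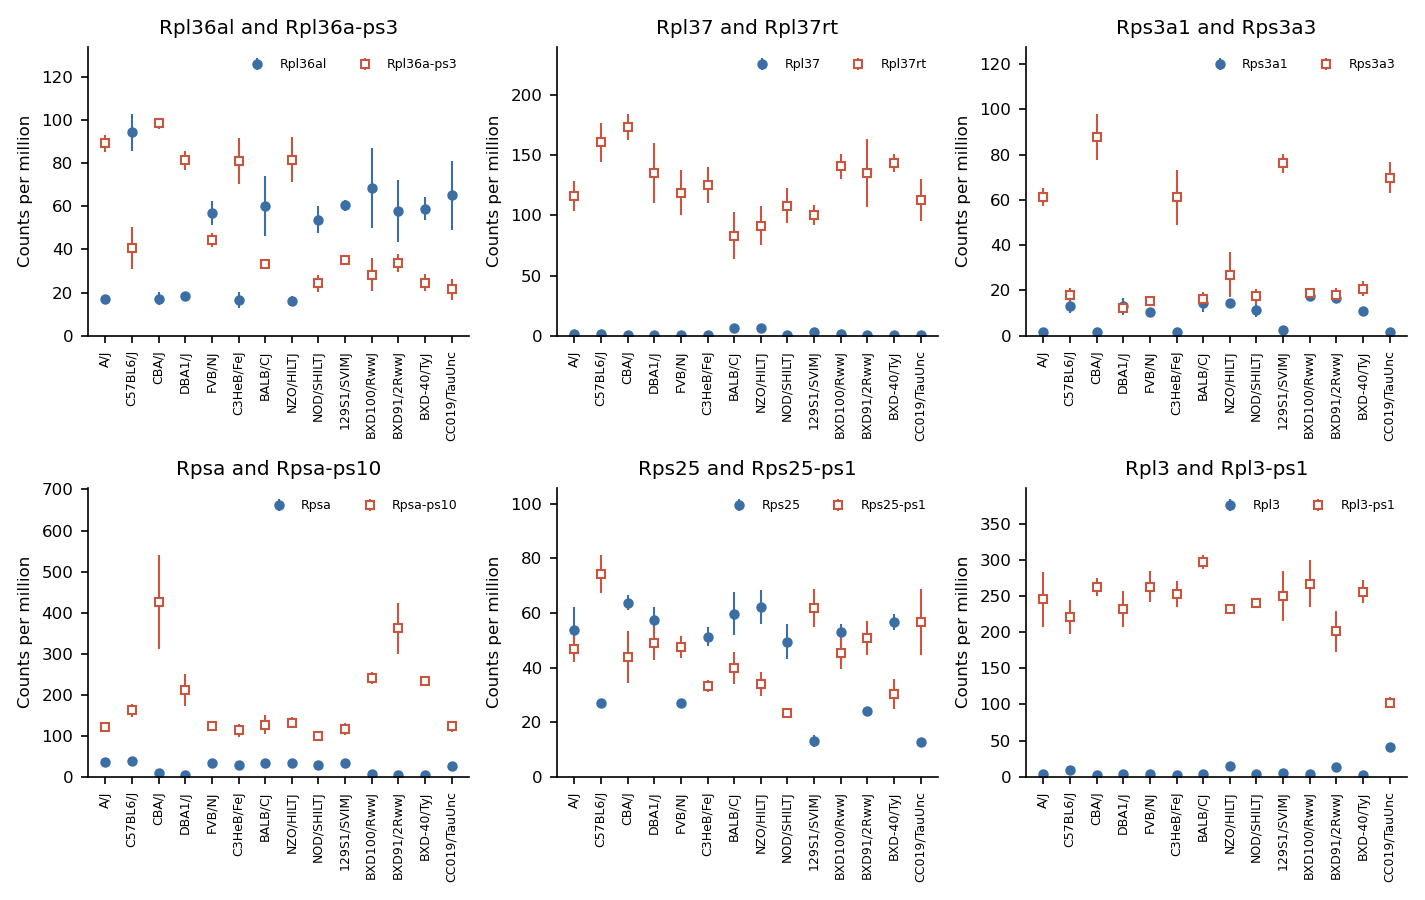
Vehicle means of 3 libraries (CPM, bars are SD) in 14 strains for 6 members (filled circles) and a copy of each (open squares). Rpl36al and Rpl36a-ps3 trade places between strains, from 94.4 and 40.7 in C57BL6/J to 16.9 and 89.2 in A/J.

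A few members kept a large strain difference with every copy added. Rpl29 stood out most. In vehicle libraries it had 120, 118 and 89.4 CPM in C57BL6/J, 152, 140.7 and 105 in CBA/J and 54.5, 55.5 and 37.7 in NZO/HILTJ. In the other 7 inbred strains its vehicle means were 0.489 to 0.925 CPM. The TCDD libraries repeated this, with 106, 85.9 and 159 CPM in C57BL6/J and 125.2, 91.4 and 93.5 in CBA/J, and no library of the 7 strains was above 2.20 CPM in either group. CBA/J was above the other 9 by 6.26 ± 0.18 (log2, SE; adjusted p 1.04e-38). With the 20 copies of Rpl29 added the range went from 134.7-fold to 61.5-fold, and those copies together held 1.33 to 10.5 CPM in the inbred strains.

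Rps2, which lines the mRNA entry of the small subunit, ran from 5.08, 6.60 and 3.67 CPM in FVB/NJ to 115, 128.1 and 131 CPM in NZO/HILTJ. C3HeB/FeJ, BALB/CJ and CBA/J were also low, at 17.8, 21.3 and 32.2 CPM, and the other 5 strains had 67.2 to 96.3. FVB/NJ was below the other 9 by 3.45 (-3.45 ± 0.23, log2, SE; adjusted p 2.19e-19) and NZO/HILTJ above them by 1.66 ± 0.15. Its leading copy Gm5786 was low in the same strains, at 0.0528 to 0.137 CPM in FVB/NJ, C3HeB/FeJ, BALB/CJ and CBA/J and at 20.1 to 40.3 CPM in the other 6. The range was 22.3-fold alone and 21.1-fold with its 29 copies. In CC019/TauUnc Rps2 had 3.81 ± 1.11 CPM (SD, n = 3) while its copies summed to 384 CPM.

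Rpl15 fell into 2 sets of strains. It had 66.6, 67.0 and 63.6 CPM in CBA/J, 72.1, 72.6 and 76.8 in 129S1/SVIMJ, and means of 62.3 and 60.8 in DBA1/J and C3HeB/FeJ. The other 6 inbred strains had means of 14.6 to 24.5 CPM, and the sets did not overlap in any library of either treatment. With its 8 copies the range was 5.12-fold, against 4.94-fold alone. Rps19, which is mutated in Diamond-Blackfan anaemia, had 20.1, 17.99 and 24.1 CPM in NOD/SHILTJ vehicle libraries, below the lowest other inbred vehicle library at 32.5. The difference was -1.25 ± 0.16 (log2, SE; adjusted p 2.11e-08), and -1.07 ± 0.16 among TCDD groups. Rps4l, a single-exon relative of the X-linked Rps4x, had 1.73, 1.56 and 4.16 CPM in A/J and 18.3, 20.2 and 13.9 in C57BL6/J vehicle. It reached 91.0 CPM in 1 library of that strain, the one labelled TCDD replicate 3, against 14.6 and 25.7 in the other 2 of its group.

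**Figure D4:**
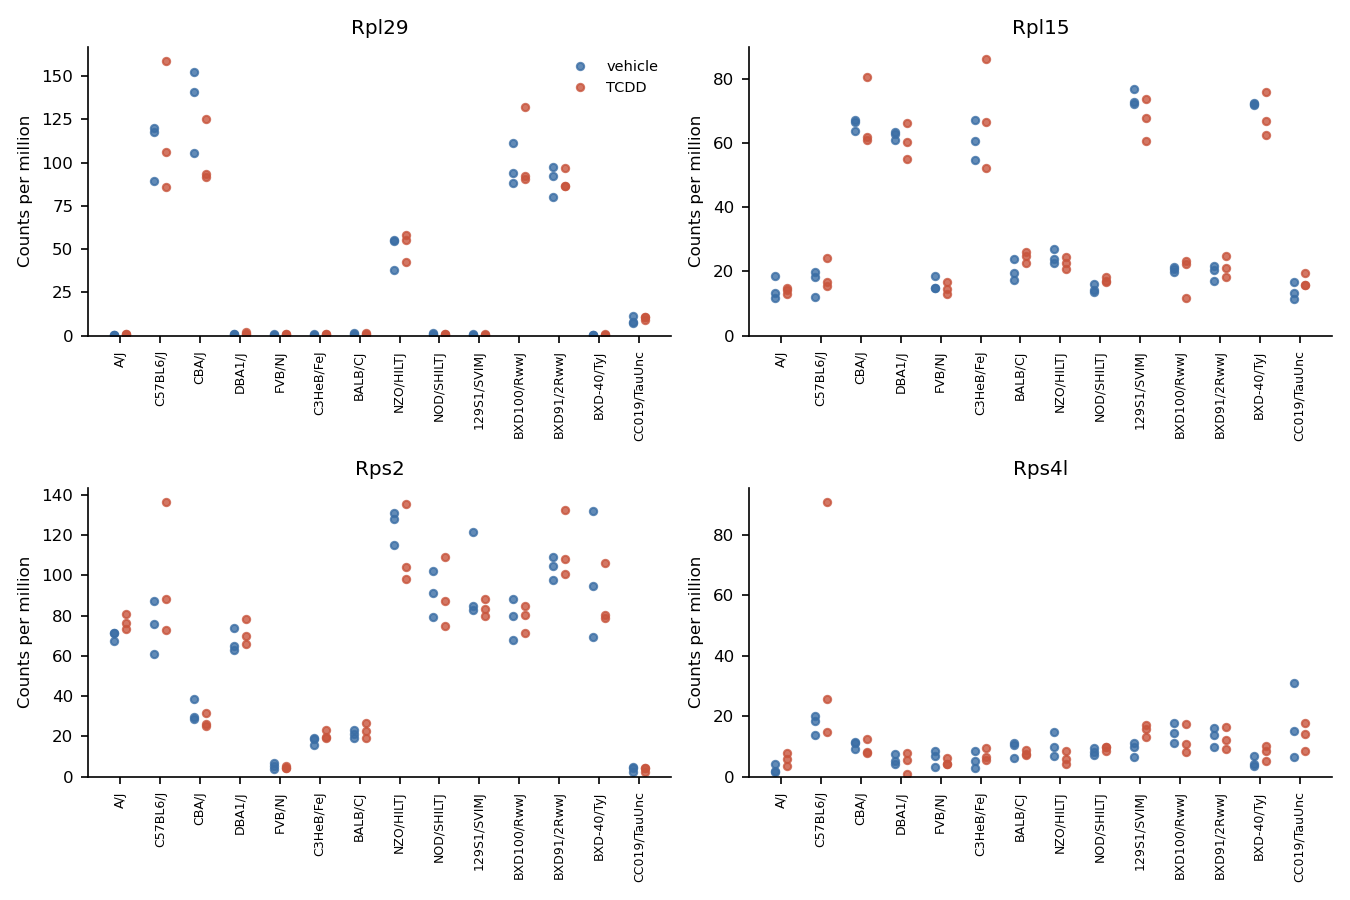
CPM of Rpl29, Rpl15, Rps2 and Rps4l in each vehicle (blue) and TCDD (red) library of 14 strains. Rpl29 is at 37.7 or more in C57BL6/J, CBA/J, NZO/HILTJ, BXD100/RwwJ and BXD91/2RwwJ, at 7.44 to 11.1 in CC019/TauUnc and at 2.20 or less elsewhere. Rps4l has 1 library at 91.0.

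In some members the copies had far larger strain differences than the member. Rpl27 itself had 4.18 to 7.36 CPM over the inbred strains, a 1.68-fold range with no strain called, but its copies summed to 200 CPM in BALB/CJ, 133.9 in NOD/SHILTJ, 173 in 129S1/SVIMJ and 140.8 in CC019/TauUnc, against 0.547 to 1.32 in the others. Rpl17 had 0.724 to 1.33 CPM, and Rpl17-ps10 had 80.7 to 102 CPM in C57BL6/J, FVB/NJ, C3HeB/FeJ, NOD/SHILTJ and 129S1/SVIMJ but 0.0934 to 7.83 in the other 5. Sums with copies ranged 39.6-fold for Rpl27 and 45.6-fold for Rpl17. Rps7 had 4.80 ± 0.56 CPM in 129S1/SVIMJ and 6.72 ± 1.32 in NZO/HILTJ (SD, n = 3), with Gm9493 at 56.6 CPM in both and at 46.4 in C57BL6/J, against 0.152 to 0.469 in the other 7, and Rps7 itself was called lower in the first 2 of these strains. Rpl35, near the exit of the peptide tunnel, had 6.44 ± 2.69 CPM in DBA1/J, against 0.798 to 1.99 in the other 9, and its copy Gm10269 moved with it, at 26.1 ± 2.3 against 3.06 to 6.29 CPM.

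Over all 75 members with copies, the ranges were compared with and without the copies. Since the member held a median of 13.8% of the sum, the sum mostly follows other rows with more counts, and a smaller range of the sum does not show that reads moved between member and copy. The range over the 10 vehicle means was over 2-fold in 38 members alone and in 22 with copies, and over 4-fold in 15 and 9. The median range went from 2.01-fold to 1.67-fold, and the SD over strains on the log2 scale (with 0.5 CPM added) from 0.311 to 0.238. It became smaller in 53 of the 75. The 14 members with no copy had a median range of 1.49-fold and an SD of 0.175, and only Rpl3l, high in the A/J library with muscle markers, passed 2-fold. These 14 also had higher levels, with a median of 121 CPM against 5.72 CPM for members with a copy. The part of low counts in the wider ranges was not tested. With copies added 74 of 88 members differed between the inbred strains (42.4% of all genes). Members of one family, such as Rps3a1, Rps3a2 and Rps3a3, then share counts and are not separate results.

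**Figure D5:**
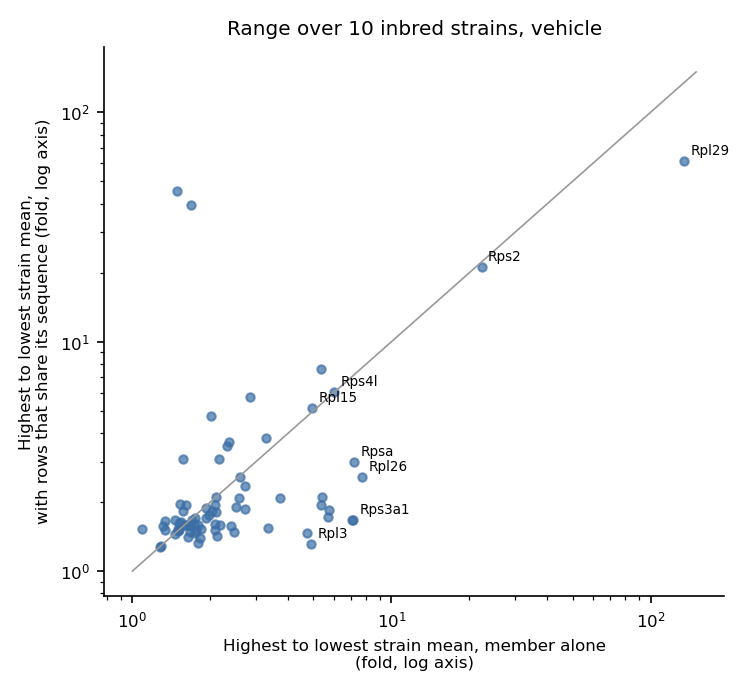
Ratio of the highest to the lowest of 10 inbred vehicle means for each of 75 members with copies, alone (horizontal, log axis) and with the copies' counts added (vertical, log axis), with 0.5 CPM added to each mean. Points below the line of equality, such as Rps3a1 and Rpl3, have a smaller range with copies, of whose sums they held 7.22% and 1.66%, Rpl29 and Rps2 stay wide, and the 2 points at the upper left are Rpl17 and Rpl27.

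CBA/J and NOD/SHILTJ each moved many members one way. In CBA/J vehicle 30 of 87 members were higher than in the other 9 strains and 8 lower, against 12.2% and 5.6% of all genes, with a median of 0.35 on the log2 scale and -0.01 for all genes. Among the 13 tested members with no copy, 9 were higher and none lower. Rps3, also known as a DNA repair factor, had 406, 458 and 419 CPM in CBA/J vehicle, above all 24 vehicle libraries of the 8 inbred strains other than CBA/J and NOD/SHILTJ, where the highest was 361. Its difference was 0.63 ± 0.10 (SE; adjusted p 3.51e-06). Rpl32 was higher by 0.78 ± 0.13, Rps20 by 0.58 ± 0.12, Rps9 by 0.54 ± 0.11, Rpl8 by 0.42 ± 0.11 and Rpl4, which lines the peptide tunnel, by 0.32 ± 0.08. With copies added 58 members were higher and 4 lower (12.3% of all genes higher). The count was 38 in all and 19 without vehicle replicate 1. Among TCDD groups 12 were higher and 8 lower in CBA/J, against 3.81% and 1.7% of all genes, with a median of 0.17, and 12 in all without TCDD replicate 1. Rps3, Rpl32 and Rpl4 were called again, at 0.36 ± 0.10, 0.51 ± 0.13 and 0.28 ± 0.08.

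Several other values moved with CBA/J. Of the 77 mitochondrial ribosomal proteins 38 were higher and 0 lower, with a median of 0.37. Of the elongation factors, Eef1a1 was higher by 0.37 ± 0.10, Eef1d by 0.62 ± 0.11 and Eef1g by 0.93 ± 0.11, and of the components outside the rule Rack1 by 0.43 ± 0.11. Biogenesis factors had 3 of 41 higher and 4 lower. The CBA/J vehicle libraries had the highest GC slope of any group, a mean of 0.315 log2 per 10 points of GC (0.212 to 0.515). With trends on GC and length taken out 24 members were higher and 9 lower, with a median of 0.24. Of 11 skeletal muscle markers 8 were higher (median 5.33). Their summed level was 0.913 and 1.06 CPM in vehicle replicates 1 and 2 and 126 in replicate 3, while the members' sum was 5363, 5371 and 5071 CPM, and 6674, 5426 and 5586 CPM on TMM-scaled totals. Among TCDD groups 8 of the 11 muscle markers were also higher in CBA/J (median 6.47). The part of these values in the result was not tested. Over the other 9 strains' vehicle libraries muscle markers ran from 0.318 to 22.7 CPM outside A/J vehicle replicate 2.

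In NOD/SHILTJ vehicle 21 of 87 members were lower than in the other 9 strains and 3 higher, against 5.54% and 7.88% of all genes, with a median of -0.34. Of the 13 with no copy 5 were lower and none higher, among them Rpl32 at -0.50 ± 0.14, Rpl4 at -0.38 ± 0.08, Rps20 at -0.52 ± 0.13 and Rps3 at -0.34 ± 0.11 (log2, SE). The smallest p in NOD/SHILTJ were those of Rpl15 at -1.25 ± 0.13, Rps19 and Rps24 at -0.92 ± 0.13. Eef1a1, Eef1b2 and Eef1d were also lower, by 0.33 to 0.39 (-0.33 ± 0.11, -0.33 ± 0.11 and -0.39 ± 0.12). With copies added 44 members were lower and 3 higher (5.69% of all genes lower). The count was 24 in all and 11 without vehicle replicate 2. Among TCDD groups 11 were lower and 7 higher, against 3.22% and 5.27% of all genes, with a median of -0.12, and none of the 13 with no copy was called. The NOD/SHILTJ vehicle libraries had the highest length slope of any group, a mean of 0.097 log2 per doubling (0.048 to 0.138), and Kupffer cell markers had 3 of 11 higher (median 0.53). Of the 77 mitochondrial ribosomal proteins 9 were lower and 2 higher (median -0.20). With GC and length trends out 19 were lower and 4 higher. The part of these values in the result was not tested.

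The other inbred strains had calls on both sides. In C57BL6/J vehicle 17 members were higher and 4 lower (5.93% and 3.61% of all genes), led by Rpl29 at 5.76 ± 0.18, Rpl36al and Rps3a1 at 1.27 ± 0.17. In A/J 7 were higher and 12 lower (6.24% and 3.03%), led by Rpl7 at -1.49 ± 0.13, Rpl15 at -1.16 ± 0.13 and Rps3a3 at 1.13 ± 0.14, and 12 were called without vehicle replicate 3. In DBA1/J 8 were higher and 6 lower (3.42% and 1.88%), led by Rpsa at -2.58 ± 0.22, Rpl15 at 1.17 ± 0.11 and Rpl26 at 1.85 ± 0.20. In FVB/NJ 5 were higher and 7 lower (3.31% and 2.65%), led by Rps2, Rpl26 and Rpl15, the last at -0.98 ± 0.13. In C3HeB/FeJ 4 were higher and 9 lower (3.91% and 1.91%), led by Rpl15 at 1.21 ± 0.11, Rps3a3 at 1.19 ± 0.14 and Rps3a1 at -1.88 ± 0.24. In BALB/CJ 6 were higher and 10 lower (4.33% and 2.67%), led by Rpl37 at 2.16 ± 0.22, Rps3a1 at 1.33 ± 0.17 and Rps16 at 1.54 ± 0.23, and 10 were called without vehicle replicate 1 or 2. In NZO/HILTJ 14 were higher and 4 lower (6.58% and 4.83%), led by Rpl29 at 4.46 ± 0.19, Rps2 and Rpl3 at 1.86 ± 0.18, and 10 were called without vehicle replicate 1. In 129S1/SVIMJ 13 were higher and 5 lower (4.37% and 3.61%), led by Rpl15 at 1.49 ± 0.10, Rps25 at -1.84 ± 0.14 and Rps3a3 at 1.51 ± 0.14.

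Lists of other cell types moved in the same comparisons. In C57BL6/J 10 of 17 proliferation genes were higher (median 1.04), as were 3 of 7 neutrophil markers (1.93) and 5 of 41 ribosome biogenesis factors (0.27). In A/J all 11 skeletal muscle markers (median 9.80), 10 of 11 Kupffer cell markers (0.84), 3 of 12 lymphocyte markers (0.84), 2 of 3 markers of pancreas acini (3.55) and 2 of 3 of adrenal cortex (4.81) were higher. The muscle median rests on the library labelled A/J vehicle replicate 2. There muscle markers summed to 2291 CPM and adrenal cortex markers to 456 CPM. In 129S1/SVIMJ 8 of 11 Kupffer cell markers were lower (median -1.06). In NZO/HILTJ 3 of 4 nuclear and long RNAs, a sign of RNA quality, were higher (median 1.79). Of 8 erythroid markers 3 were higher in C3HeB/FeJ (median 0.65) and 2 in FVB/NJ (0.55). In BALB/CJ 3 were higher and 1 lower (0.95), and in 129S1/SVIMJ 1 was higher and 2 lower (-0.49). Of 13 hepatocyte markers 3 were lower and 0 higher in BALB/CJ (median -0.30). Of 12 lymphocyte markers 3 were higher and 1 lower in NZO/HILTJ (median 0.07). The part of these values in the members' counts was not tested.

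These strain differences were mostly seen again in the treated mice. Of the calls of a member in an inbred strain with vehicle, 190 had the same sign among TCDD groups and 3 the opposite. Over all genes tested, 13826 of 15142 such calls had the same sign, so sign agreement was common beyond the members. Of the members' calls 69.9% were called again with the same sign, against 45.6% of the calls of all genes. The share was 90.5% in C57BL6/J and 92.9% in DBA1/J, and 44.7% in CBA/J and 50% in NOD/SHILTJ. Over the calls of all genes it was 56.4%, 68.4%, 21.12% and 30.2% in the same strains. In C57BL6/J the TCDD groups gave 31 higher and 5 lower members, against 10.5% and 5.28% of all genes. In the same comparison 7 of 12 lymphocyte markers (median 1.45), 3 of 7 neutrophil markers (1.18), 4 of 17 proliferation genes (0.63) and 26 of 77 mitochondrial ribosomal proteins (0.24) were higher, and their part in the result was not tested. That count rests on the library labelled TCDD replicate 3, without which 17 were called, and 13 were higher and 4 lower (4.81% of all genes higher) without the 3 libraries that were left out together.

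The BXD lines descend from C57BL/6J and DBA/2J, and the rows described above are set beside those of C57BL6/J and DBA1/J. Rpl29 had 93.7, 111 and 88.3 CPM in BXD100/RwwJ vehicle and 92.5, 97.3 and 80.2 in BXD91/2RwwJ, close to the 89.4 to 120 of C57BL6/J. In BXD-40/TyJ it had 0.382, 0.248 and 0.547 CPM, near the 0.405 to 1.14 of DBA1/J. Rpl15 had 72.5, 71.7 and 72.0 CPM in BXD-40/TyJ, nearer the 61.0 to 63.3 of DBA1/J, and means of 20.7 and 19.6 in the other lines, nearer the 12.0 to 19.9 of C57BL6/J. Rpsa stood at 3.09 to 5.55 CPM in all 3 lines, near DBA1/J at 4.85. Rps7 in BXD100/RwwJ and BXD91/2RwwJ came with 38.3 and 48.5 CPM of Gm9493, as in C57BL6/J, and with 0.321 in BXD-40/TyJ. Rpl36al, with means of 58.0 to 68.6 CPM, was between the means of DBA1/J and C57BL6/J in all 3 lines, and Rpl17-ps10 was at 0.0229 to 0.114 CPM in all 3, as in DBA1/J. These lines share a reference tag that no inbred strain has, and DBA1/J is not their parent, so likeness is given as values only.

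Against the 10 inbred strains the 3 BXD lines together had 13 members higher and 7 lower with vehicle, against 6.23% and 5.73% of all genes. Among the largest rises were Rpl29 at 2.305 ± 0.272, Rps3a1 at 1.28 ± 0.11, Rps2 at 1.05 ± 0.10, Rpl26 at 1.01 ± 0.14 and Rpl36al at 0.87 ± 0.09 (log2, SE). Among the largest falls were Rpl3l at -3.20 ± 0.92, Rpsa at -2.54 ± 0.13, Rpl37 at -0.76 ± 0.19, Rps3a3 at -0.68 ± 0.10 and Rps16 at -0.54 ± 0.18. Rpl3l rests on low counts, 0 to 0.311 CPM in the 9 BXD vehicle libraries, and on the A/J library with muscle markers. Among the TCDD libraries it had 1.80 CPM in BXD91/2RwwJ replicate 2, which also held muscle markers. Of 17 proliferation genes 5 were higher in the BXD lines (median 0.54), and their part in the result was not tested. With copies added 11 members were called in place of 20, and Rpsa, Rpl37, Rps16, Rps3a3, Rpl26 and Rpl36al were among those that changed sign.

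CC019/TauUnc had 8 members higher and 7 lower than the 10 inbred strains, against 5.63% and 6.01% of all genes. The largest rises were Rpl3 at 3.23 ± 0.16, Rpl29 at 1.59 ± 0.23, Rps16 at 1.53 ± 0.23, Rps4l at 1.23 ± 0.32, Rps3a3 at 1.23 ± 0.14 and Rpl36al at 1.01 ± 0.13. Among the largest falls were Rps2 at -3.50 ± 0.23, Rps3a1 at -1.77 ± 0.24, Rps25 at -1.71 ± 0.14, Rpl6 at -1.21 ± 0.27 and Rpl15 at -1.07 ± 0.13. All 15 calls were in members with a copy, and 0 of the 13 tested members without one was called. Rpl29 had 8.08, 11.1 and 7.44 CPM there, between the high and the low strains and overlapping neither. All 11 Kupffer cell markers were lower in this line (median -1.60), and their part in the result was not tested.

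The remaining paralogs differed less between strains. Rps27l, a p53 target, had a 1.45-fold range over the inbred strains (adjusted p 0.0352), Rpl7l1 a 1.29-fold range (0.0950) and Rpl22l1 a 1.84-fold range (0.0629). Rps27rt ranged 1.59-fold (0.0268). Of the stalk proteins Rplp1 ranged from 86.5 CPM in NOD/SHILTJ to 182 in CBA/J (adjusted p 8.49e-07), Rplp0 from 78.4 in C57BL6/J to 123.6 in CBA/J (0.00758) and Rplp2 from 2.87 in A/J to 5.20 in 129S1/SVIMJ (0.347). Rpl5 had 3.55 to 6.92 CPM (0.167), Rpl11 2.18 to 4.78 (0.0207), Rps6 2.16 to 5.04 (0.00142) and Rps27a 1.57 to 3.16 (0.530), each beside a leading copy with over 80 CPM. Over the strains, the mean TCDD effects of the paralogs and like genes were 0.44 ± 0.34 for Rpl3l, 0.17 ± 0.13 for Rps4l, 0.03 ± 0.10 for Rpl22l1, 0.04 ± 0.04 for Rpl7l1, 0.01 ± 0.06 for Rps27rt and 0.02 ± 0.05 for Rpl36al (log2, SE), none of them called. Rpl39l was under the low-count filter, and Rpl10l had no counts and is not in the authors' table.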

How the data were processed

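RNA-seq libraries of total liver RNA (RIN at least 7) were made with a kit that marks no strand. FastQC 0.11.5, Trimmomatic 0.38, Bowtie2 2.3.2.25, HTSeq 0.6.1 and DESeq2 were used and the build was mm9, per the submitters' processing notes; their settings are not given in the sources used here. The authors deposited raw read counts per gene for each library. The authors' deposited table holds log2 fold changes and adjusted p-values per strain, used only where named. A p-value elsewhere comes from the tests below on the deposited counts.

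Counts were tested with edgeR 4.0.16 (R 4.3.3, limma 3.58.1): TMM scaling (factors 0.775 to 1.16), filterByExpr (16195 genes kept), 28 groups, robust quasi-likelihood tests, Benjamini-Hochberg adjustment over all genes and a threshold of 0.05. DESeq2 1.42.0 was an alternative. CPM are the deposited counts scaled to each library's total of gene counts. The rows of reads in no gene, ambiguous or with more than 1 alignment stayed out of totals and tests. Lengths, GC and shared stretches came from GENCODE M21 (GRCm38), another build than the counts, so no coordinates were joined. The gene lists and members were chosen with earlier results of these data known. Named were the paralogs, stalk proteins, Rpsa, Rpl5, Rpl11, Rps6 and Rps27a, the 8 or 3 smallest p per test, the 6 largest rises and falls in the lines, and the 5 highest and lowest per length; for strain effects without a call only some are printed, and some members that the rule names are not reported here. The tests were also tried on counts simulated from the levels of these data. Replicate pairs differed beyond sampling noise, so none was merged. With 3 libraries a group, precision is limited by the spread between libraries.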

Additional observations from a re-analysis of the deposited data

How the results depend on the processing

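No paired analysis was possible because the replicate numbers follow accession order only. Of the results on counts of members and the summed level, 699 recomputed values stayed within 1.5 times the reported one and 36 did not; for the single members reported 4668 kept direction and side of the threshold, 19 crossed it upward, 44 downward and 62 changed sign. The causes were not tested. Low counts of many members limit what the tests can detect.

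Members called for the TCDD effect in NOD/SHILTJ numbered 1, with 2 under DESeq2, 0 with GC and length trends taken out, 4 with pseudogene rows added by name, 7 with copies added, 2 without the 3 libraries left out together, 0 in the strain fitted alone, and 0 to 1 leaving out 1 library. In C57BL6/J DESeq2 called 1, and leaving out 1 library gave 0 to 7. In C3HeB/FeJ it gave 0 to 2. With copies added, members of one family share counts and are not separate results. For most counts in this paragraph and the next, the calls among all genes are not reported here. Those counts are therefore not shown to be particular to the members.

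With copies added, calls against the other strains were 62 in CBA/J, 7 in C3HeB/FeJ, 47 in NOD/SHILTJ and 11 in the BXD lines, and under TCDD 18 in FVB/NJ, 8 in NZO/HILTJ and 11 in NOD/SHILTJ. With pseudogene rows by name, FVB/NJ under TCDD had 20. C57BL6/J under TCDD had 17 without the 3 libraries. Leaving out 1 library gave 12 to 14 in A/J, 19 to 32 in CBA/J, 10 to 13 in BALB/CJ, 10 to 14 in NZO/HILTJ and 11 to 23 in NOD/SHILTJ, and under TCDD 17 to 38 in C57BL6/J, 12 to 17 in CBA/J, 8 to 9 in DBA1/J, 10 to 20 in C3HeB/FeJ and 10 to 15 in 129S1/SVIMJ. The members' summed level was 7345 CPM with pseudogene rows added, against 4295.

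These log2 values changed sign. With copies added, TCDD effects became -0.21 for Rpl29 in DBA1/J, -0.11 for Rpl36 in FVB/NJ, -0.0546 for Rps6 in BALB/CJ and -0.15 for Rpl35 in NZO/HILTJ, and the mean effects 0.0121 for Rpl5 and 0.0786 for Rps27a. Strain differences became 0.0803 for Rpl7 in A/J, 0.13 for Rpsa and -0.33 for Rpl26 in DBA1/J, -0.78 for Rpl26 in FVB/NJ, 0.0910 for Rps3a1 in C3HeB/FeJ, -0.57 for Rpl37, -0.13 for Rps3a1 and -0.20 for Rps16 in BALB/CJ, and -0.0473 for Rpl3 in NZO/HILTJ. In the BXD lines they became -0.0626 for Rpl26, -0.20 for Rpl36al, 0.48 for Rpsa, 0.18 for Rpl37, 0.0224 for Rps3a3 and 0.15 for Rps16. In CC019/TauUnc they became -0.67 for Rpl3, -0.48 for Rps16, -0.20 for Rpl36al, 2.40 for Rps2, 0.13 for Rps3a1 and 0.0876 for Rpl6.

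With pseudogene rows added by name, they became -0.12 for the TCDD effect on Rpl36 in FVB/NJ, -0.0508 for that on Rps6 in BALB/CJ, 0.0763 for the mean effect on Rps27a, 0.12 for Rpsa in DBA1/J, -0.21 for Rps16 in BALB/CJ, -0.0558 for Rpl3 in NZO/HILTJ, 0.49 for Rpsa and 0.16 for Rps16 in the BXD lines, and -0.68 for Rpl3, -0.48 for Rps16 and 2.93 for Rps2 in CC019/TauUnc. In the 10 inbred strains the mean TCDD effect was -0.24 for Rpl3l, -0.0191 for Rps27rt, -0.0167 for Rplp0 and 0.0642 for Rpl5. Without the 3 libraries it was -0.0156 for Rps27rt and -0.0169 for Rpl36al, and the effect on Rpl3l in A/J was 1.33. Rpl3l in the BXD lines was 0.0807 among TCDD groups. Leaving out 1 library, mean effects ranged from -0.00426 to 0.0343 for Rps27rt, -0.00367 to 0.0320 for Rplp0, -0.00892 to 0.0350 for Rpl36al, -0.11 to 0.0117 for Rpl5 and -0.0304 to 0.0611 for Rpl22l1, and the effect on Rpl3l in A/J from -3.6 to 1.33.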
